A study of Mus musculus with 16 samples.

Results

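Cytokine and growth factor receptors on hematopoietic stem cells (HSC) were examined as a group of 35 genes, chosen by name: receptor tyrosine kinases, the class I cytokine receptor families, the class II (interferon and interleukin 10) receptors and the interleukin 17 receptor. Of these, 28 had a probe among the 16593 genes with a probe in the deposited table, and 7 (Kit, Csf1r, Il2rg, Il4ra, Il11ra1, Prlr and Crlf2) were not analysed here. The brightest probe stood for each gene. It was above array background on enough arrays to be tested for 25 genes and below the filter for 3 (Il6ra, Il13ra1 and Lepr). Gene expression was measured on 16 Illumina mouse bead arrays, in 4 groups of 4, each array hybridised with RNA pooled from 2 C57Bl/6 mice. All mice were IFNgamma-/-. Control mice carried only that deletion, and CD70TG mice also carried a transgene for CD70, which binds the costimulatory receptor CD27. From both genotypes a long-term fraction, labelled CD34-, and a short-term fraction, labelled CD34+, were sorted from lineage-negative, c-Kit-positive, Sca-1-positive bone marrow cells, so that the question was how the transgene changes either HSC fraction without IFNgamma. The mice's age and the promoter of the transgene are not stated in the sources used here.

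Class I and class II cytokine receptors have no kinase of their own. Binding of a cytokine brings chains together and activates associated Janus kinases (JAKs), which phosphorylate STAT transcription factors; STATs in turn induce feedback inhibitors such as the SOCS proteins. Many receptors pair a ligand-specific chain with a shared chain, such as the beta common chain, the gamma common chain, gp130 (Il6st) or Il10rb. Receptor tyrosine kinases such as Tek carry their own kinase, and several of both kinds set whether HSC rest, divide or commit to a lineage.

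Values are the deposited log2-like values, and a difference of 1 means a doubling where the logarithm is to base 2, which was not stated. Groups are named by their labels, because neither Cd34 nor Cd70 messenger RNA checked them: Cd34 differed by -0.17 (adjusted p = 0.438, limma) and -0.09 (adjusted p = 0.813) between CD34+ and CD34- arrays of control and CD70TG mice. The Cd70 probe was at background on all CD34- arrays and lay at 7.11 to 9.60 on control and 6.67 to 6.89 on CD70TG CD34+ arrays (-1.50, adjusted p = 0.0022). The treatment text in the labels gives 1 gate for both fractions. Array medians ran from 6.43 to 6.53, and replicates correlated at 0.986 to 0.996. On the first principal component of all genes, 2 arrays stood apart from their groups: control CD34+ replicate 4 at 5.48, against -19.7 to -11.4 for the other 3, and CD70TG CD34- replicate 2 at 0.67, against 15.6 to 26.4. The arrays also differed in a measure over many probes, called here the probe discordance index: the first principal component of the differences between both probes of 1839 genes with exactly 2 bright probes, with no receptor probe used. Its mean was -1.18 ± 0.34 (SD, n = 4) on control and 0.70 ± 0.64 on CD70TG CD34- arrays, and -0.42 ± 0.70 on control and 0.90 ± 0.39 on CD70TG CD34+ arrays. Values with the index as a covariate are therefore given beside the genotype differences of the called receptors, and of some others. The index also followed the first principal component of all genes, which held 50.6% of the variance. The array lowest on the index (-1.42) was lowest on that component (-33.8), and the highest (1.2) was highest (29.4). A fit with the index therefore also takes up part of the main difference between the arrays. In CD34- cells the index ran from -1.42 to -0.679 on control and -0.225 to 1.18 on CD70TG arrays, without overlap. Genotype and index therefore cannot be fully told apart. A call lost or reversed with the index is not assigned to either. In bulk arrays, fewer cells of a type and less RNA per cell cannot be told apart.

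The receptors that fell in CD70TG mice in both fractions were Ghr, Tek, Csf2rb2 and Il27ra, and the one that rose in both was Il10rb. Sequences before the transcription starts of Ghr, Tek and Csf2rb2, which fell together, are shown with that of Il7r, the receptor with the widest range over the 16 arrays. They are from RefSeq (GRCm38.p6), each read 5′ to 3′ on the gene's strand and ending at the base before an annotated start, except the Il7r stretch, which surrounds its match. Capitals mark matches to GAS (TTCNNNGAA, the element bound by STAT dimers) and to PU.1 (GAGGAAG, or its reverse complement), with the GATA motif (AGATAA) and the RUNX motif (TGTGGT) also searched, on both strands of the 250 bases before each start.
Csf2rb2, chr15:78305722-78305901, minus strand: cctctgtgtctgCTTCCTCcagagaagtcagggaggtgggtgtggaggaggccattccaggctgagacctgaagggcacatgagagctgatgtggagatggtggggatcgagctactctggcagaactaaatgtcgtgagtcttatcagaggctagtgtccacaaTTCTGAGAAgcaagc
Ghr, first start, chr15:3583353-3583452, minus strand: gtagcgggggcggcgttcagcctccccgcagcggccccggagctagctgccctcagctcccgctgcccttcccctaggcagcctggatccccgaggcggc
Ghr, second start, chr15:3581843-3581942, minus strand: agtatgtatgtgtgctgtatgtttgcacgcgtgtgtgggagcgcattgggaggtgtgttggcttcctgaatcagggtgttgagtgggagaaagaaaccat
Tek, chr4:94739189-94739288, plus strand: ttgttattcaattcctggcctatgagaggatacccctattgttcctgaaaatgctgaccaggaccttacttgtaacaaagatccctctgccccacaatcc
Il7r, chr15:9529980-9530048, minus strand: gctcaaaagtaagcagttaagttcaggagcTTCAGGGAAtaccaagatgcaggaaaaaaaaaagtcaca
Of the 25 tested receptors, 18 had 21 such windows. GAS occurred in 3 of them (Csf2rb2, Ifnar2 and Il7r), against 7.02% of 32851 windows of all genes. PU.1 occurred in 4 (Csf2ra, Csf2rb2, Csf3r and Il15ra), against 10.6%, RUNX in 2 (Epor and Il21r), against 14%, and GATA in 1 (Epor), against 9.99%. The windows of Ghr and Tek held none of the 4 motifs. A match is a description of the letters and not a measured binding site.

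Between genotypes in the CD34- fraction, 3 receptors were higher (Il10rb, Ifngr1 and Ifnar1) and 5 lower (Ghr, Il27ra, Csf2rb2, Tek and Il12rb1) in CD70TG mice, 8 of 25 in all, at an adjusted p under 0.05. Of all 11839 features tested, 27.8% were called in this comparison, so the share among receptors was near that of all genes; 16% of features were called higher and 11.8% lower. In the CD34+ fraction, 1 receptor was higher (Il10rb) and 4 were lower (Ghr, Tek, Csf2rb2 and Il27ra), 5 of 25, where 18.2% of all features were called (7.59% higher and 10.6% lower). The arrays of both genotypes did not overlap for 5 receptors in CD34- cells, where this held for 23.1% of all features, and for 9 in CD34+ cells, where it held for 21.5%. The median difference over the 25 receptors was 0.02 in CD34- and 0.01 in CD34+ cells, and over all features 0.02 in both. With the 2 arrays that stood apart left out, 9 receptors were called in CD34- cells (31.3% of all features), 7 of them among the 8 above. In CD34+ cells 8 were called (25.6% of all features), among them all 5 above. Leaving out control CD34+ replicate 4 alone also gave 8 in CD34+ cells (23.1% of all features). Under quantile normalization 44.4% of the features called in CD34- cells were higher, in place of 57.5%.

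**Figure D1:**
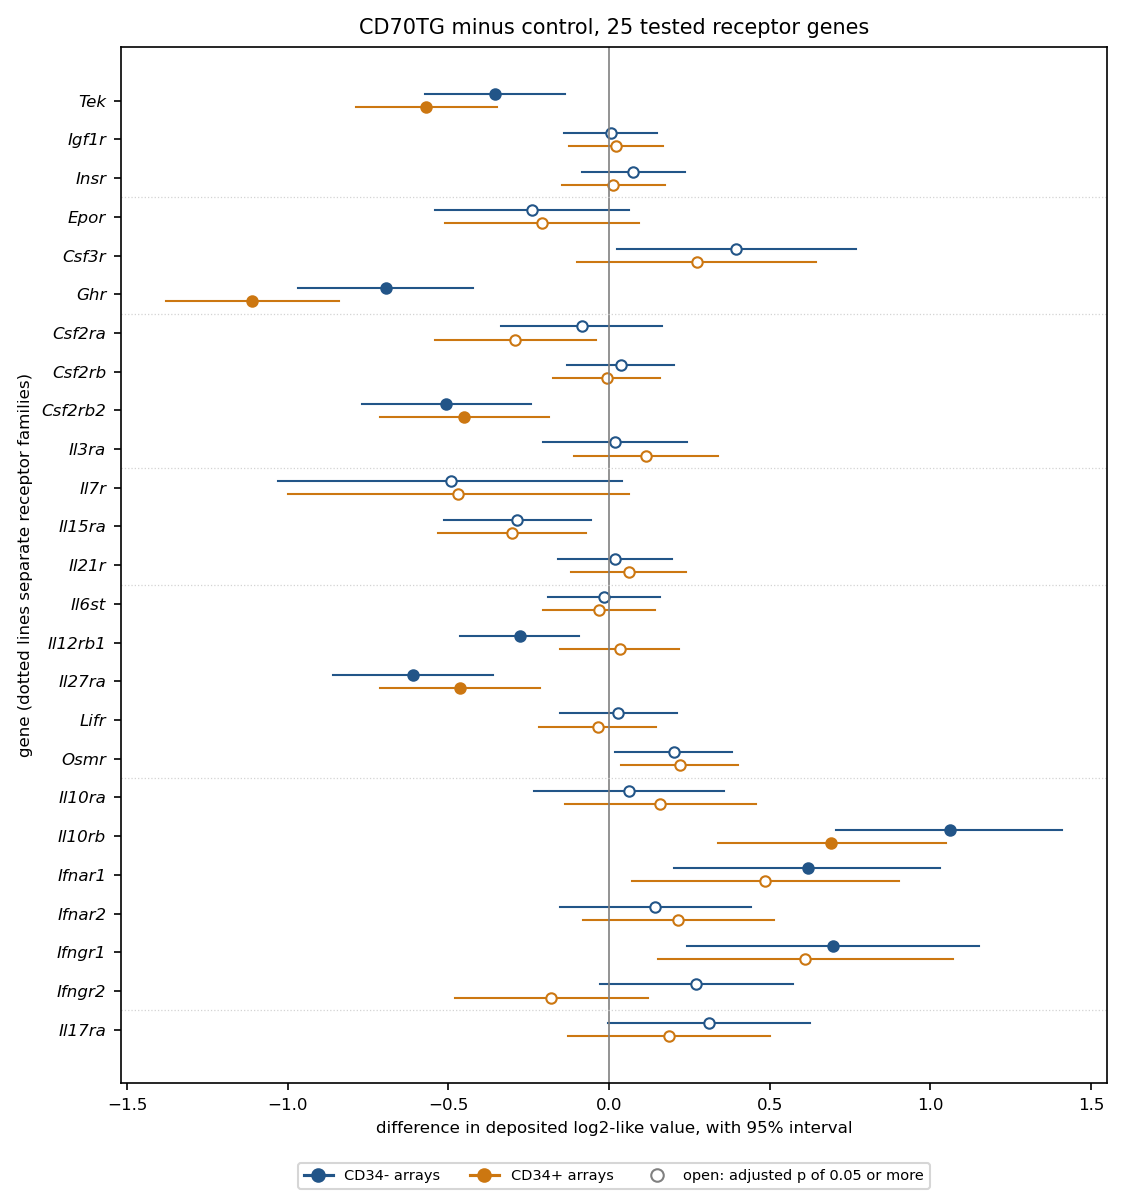
Difference between CD70TG and control arrays (x axis, log2-like value, with its 95% interval) for each of the 25 tested receptors (y axis, ordered by family), in CD34- cells and in CD34+ cells. Filled points passed an adjusted p under 0.05: 8 in CD34- and 5 in CD34+ cells, and the intervals of Ghr lie farthest below 0 in both fractions.

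Among the single-chain receptors, 1 of 3 tested genes changed between genotypes: Ghr, the growth hormone receptor, which signals through JAK2 and STAT5. Ghr read 7.87, 7.83, 8.14 and 8.14 on the control CD34- arrays and 7.19, 7.26, 7.41 and 7.33 on the CD70TG CD34- arrays. It read 7.38, 7.67, 7.66 and 7.80 on the control CD34+ arrays and 6.58, 6.26, 6.33 and 6.90 on the CD70TG CD34+ arrays. Every CD70TG array lay below every control array of its fraction, and 2 of the 4 CD70TG CD34+ arrays were not above background. The difference was -0.69 ± 0.13 (SE, adjusted p = 0.00065) in CD34- and -1.11 ± 0.13 (adjusted p = 7.1e-06) in CD34+ cells. It passed whichever array was left out. With the index as a covariate it was -0.99 (adjusted p = 0.00504) and -1.32 (adjusted p = 2.6e-05). The fall in CD34+ cells exceeded that in CD34- cells by 0.42, a difference of effects that did not pass (interaction -0.42 ± 0.18, adjusted p = 0.617). The second Ghr probe, near background at a mean of 6.26, differed by -0.06 (adjusted p = 0.632) and -0.01 (adjusted p = 0.936). Epor, the erythropoietin receptor, read between 6.85 and 7.88 and differed by -0.24 (adjusted p = 0.233) and -0.21 (adjusted p = 0.341). Csf3r, the receptor of granulocyte colony-stimulating factor, differed by 0.40 (adjusted p = 0.106) and 0.27 (adjusted p = 0.311); its CD34- difference passed without control CD34- replicate 4 (0.54, adjusted p = 0.0307).

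**Figure D2:**
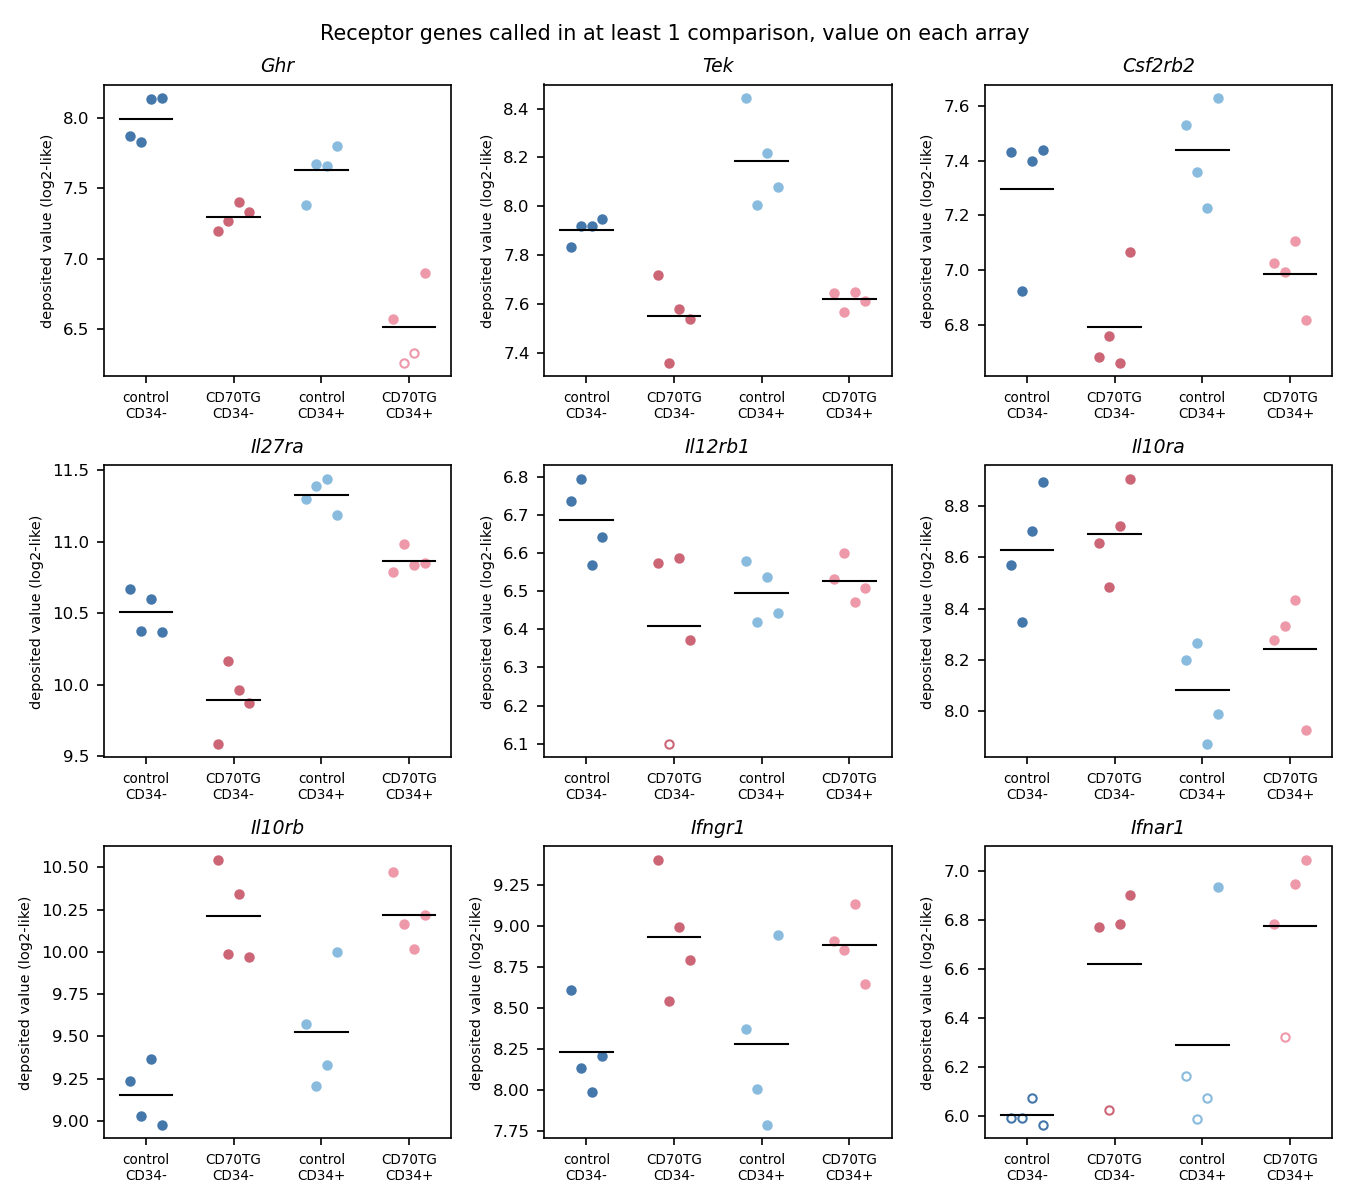
Deposited log2-like value (y axis, a separate range per panel) on each of the 4 arrays of each group (x axis) for the 9 receptors called in at least 1 comparison. Points are arrays, open where the value was not above background, and lines are group means. Ghr and Tek separate the genotypes in both fractions, Il27ra separates all 4 groups, and the control CD34- arrays of Ifnar1 are all open.

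Of the receptor tyrosine kinases, Tek fell in both fractions, while Igf1r and Insr, the receptors of insulin-like growth factor 1 and insulin, did not pass. Tek (Tie2) is the angiopoietin receptor, known for keeping HSC quiescent in the bone marrow niche. Tek read 7.83, 7.92, 7.92 and 7.95 on the control CD34- arrays and 7.72, 7.36, 7.58 and 7.54 on the CD70TG CD34- arrays. It read 8.44, 8.01, 8.22 and 8.08 on the control CD34+ arrays and 7.64, 7.57, 7.65 and 7.61 on the CD70TG CD34+ arrays. The genotypes did not overlap in either fraction. The difference was -0.36 ± 0.10 (SE, adjusted p = 0.0154) in CD34- and -0.57 ± 0.10 (adjusted p = 0.000756) in CD34+ cells, and both passed whichever array was left out. Tested against a minimum fold of 1.2, neither passed (adjusted p = 0.796 and 0.0804). With the index, the CD34+ difference was -0.67 (adjusted p = 0.0042) and the CD34- difference, at -0.50, did not pass (adjusted p = 0.115). Other transcripts known from long-term HSC moved the same way: of 13 tested markers, Tek left out (3 of them, Gata2, Slamf1 and Vwf, also in other marker lists), 8 fell in CD34- and 9 in CD34+ cells, and none rose. Their mean level was 9.07 to 9.24 on control and 8.35 to 8.40 on CD70TG CD34- arrays, and 9.07 to 9.14 on control and 8.16 to 8.23 on CD70TG CD34+ arrays; their part in the Tek and Ghr results was not tested. Igf1r read 6.54 to 6.81 over all 16 arrays and differed by 0.00 (adjusted p = 0.966) in CD34- and 0.02 (adjusted p = 0.86) in CD34+ cells. For Insr, which read 6.25 to 6.67, the differences were 0.08 (adjusted p = 0.501) and 0.01 (adjusted p = 0.922).

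In the beta common family, which serves interleukin 3, interleukin 5 and granulocyte-macrophage colony-stimulating factor, 1 of 4 genes fell in both fractions. That gene was Csf2rb2, the mouse-specific chain dedicated to interleukin 3. Csf2rb2 read 7.43, 6.92, 7.40 and 7.44 on the control CD34- arrays and 6.68, 6.76, 6.66 and 7.07 on the CD70TG CD34- arrays. It read 7.53, 7.36, 7.23 and 7.63 on the control CD34+ arrays and 7.03, 6.99, 7.11 and 6.82 on the CD70TG CD34+ arrays. In CD34- cells, control replicate 2 lay below CD70TG replicate 4, so the genotypes overlapped; in CD34+ cells they did not. The difference was -0.51 ± 0.13 (SE, adjusted p = 0.00548) and -0.45 ± 0.13 (adjusted p = 0.0172). With the index, the CD34- difference was -0.68 (adjusted p = 0.0667) and the CD34+ difference -0.57 (adjusted p = 0.0437). In CD34+ cells the call was lost without control replicate 1 (adjusted p = 0.0518) or CD70TG replicate 4 (adjusted p = 0.0626). The gene's near-identical neighbour Csf2rb, which encodes the shared chain, read 6.56 to 6.89 and differed by 0.04 (adjusted p = 0.774) and -0.01 (adjusted p = 0.964). Which of both transcripts each probe detects was not tested. Il3ra, the interleukin 3 alpha chain, differed by 0.02 (adjusted p = 0.922) and 0.12 (adjusted p = 0.491). Csf2ra, the alpha chain for granulocyte-macrophage colony-stimulating factor, differed by -0.09 (adjusted p = 0.639) and -0.29 (adjusted p = 0.0976), with no overlap in CD34+ cells.

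Within the gp130 and related receptors, Il27ra fell in CD70TG mice and was higher in the CD34+ fraction of both genotypes. Il27ra pairs with gp130 to bind interleukin 27, a heterodimer of Il27 and Ebi3. Il27ra read 10.67, 10.38, 10.60 and 10.37 on the control CD34- arrays and 9.58, 10.17, 9.96 and 9.87 on the CD70TG CD34- arrays. It read 11.30, 11.39, 11.44 and 11.19 on the control CD34+ arrays and 10.79, 10.99, 10.84 and 10.85 on the CD70TG CD34+ arrays. None of the 4 groups overlapped with another. The genotype difference was -0.61 ± 0.12 (SE, adjusted p = 0.000918) in CD34- and -0.46 ± 0.12 (adjusted p = 0.0105) in CD34+ cells. With the index it was -0.26 (adjusted p = 0.511) and -0.22 (adjusted p = 0.456), neither of which passed. A second, dimmer Il27ra probe did not pass in either fraction, at -0.32 (adjusted p = 0.089) and -0.05 (adjusted p = 0.846). Il12rb1, the chain shared by the interleukin 12 and interleukin 23 receptors, read 6.74, 6.79, 6.57 and 6.64 on the control CD34- arrays and 6.57, 6.10, 6.59 and 6.37 on the CD70TG CD34- arrays, 1 of them not above background. These groups overlapped. Il12rb1 fell by 0.28 ± 0.09 in CD34- cells (adjusted p = 0.0251), and not with the index (-0.42, adjusted p = 0.126). The call was lost without control CD34- replicate 1 (adjusted p = 0.0606) or 2 (adjusted p = 0.0705), or without CD70TG CD34- replicate 2 (adjusted p = 0.0862) or 4 (adjusted p = 0.0558). In CD34+ cells Il12rb1 differed by 0.03 (adjusted p = 0.835), or -0.06 with the index (adjusted p = 0.845), and its dimmer probe passed in neither fraction (adjusted p = 0.88 and 0.608).

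The other tested receptors of that family passed in no comparison. Il6st (gp130), the signalling chain shared by the interleukin 6 cytokines, read 6.87 to 7.22 on all 16 arrays and differed between genotypes by -0.01 (adjusted p = 0.917) in CD34- and -0.03 (adjusted p = 0.823) in CD34+ cells. Lifr, the leukemia inhibitory factor receptor, was above background on 10 of 16 arrays and differed by 0.03 (adjusted p = 0.836) and -0.04 (adjusted p = 0.814). Osmr, the oncostatin M receptor, differed by 0.20 (adjusted p = 0.0922) and 0.22 (adjusted p = 0.087); without control CD34- replicate 3 the CD34- value passed (0.25, adjusted p = 0.0451). Il6ra, the ligand-binding interleukin 6 chain, was above background on 3 arrays, as was the leptin receptor Lepr, and Il13ra1 on 2. Tested without the filter, these 3 passed in no comparison.

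Among the type II receptors, 3 of 6 rose in CD34- cells, where 16% of all features were called higher. In CD34+ cells 1 of 6 rose, where that share was 7.59%, and none was lower in either fraction. With the index none of these calls was kept. Il10rb, the chain shared by the interleukin 10, interleukin 22 and interferon lambda receptors, rose in both. Il10rb read 9.23, 9.03, 9.37 and 8.97 on the control CD34- arrays and 10.54, 9.98, 10.34 and 9.97 on the CD70TG CD34- arrays. It read 9.57, 9.21, 9.33 and 10.001 on the control CD34+ arrays and 10.47, 10.17, 10.02 and 10.22 on the CD70TG CD34+ arrays. Every CD70TG array lay above every control array of its fraction, with control CD34+ replicate 4 next to the lowest CD70TG array. The difference was 1.06 ± 0.17 (SE, adjusted p = 0.000156) in CD34- and 0.69 ± 0.17 (adjusted p = 0.00751) in CD34+ cells, and passed whichever array was left out. Tested against a minimum fold of 1.2, the CD34+ difference did not pass (adjusted p = 0.151). With the index the Il10rb differences were 0.33 (adjusted p = 0.436) in CD34- and 0.18 (adjusted p = 0.624) in CD34+ cells, and neither passed.

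Ifngr1, the ligand-binding chain for the IFNgamma that these mice lack, read 8.61, 8.14, 7.99 and 8.21 on the control CD34- arrays and 9.41, 8.55, 8.996 and 8.79 on the CD70TG CD34- arrays. It read 8.37, 8.01, 7.79 and 8.95 on the control CD34+ arrays and 8.91, 8.86, 9.14 and 8.65 on the CD70TG CD34+ arrays. The genotypes overlapped in both fractions. Ifngr1 rose by 0.70 ± 0.22 in CD34- cells (adjusted p = 0.0221), and its difference of 0.61 ± 0.22 in CD34+ cells did not pass (adjusted p = 0.0591). The CD34+ difference passed without control CD34+ replicate 4 (0.83, adjusted p = 0.00463) or CD70TG CD34- replicate 1 or 2 (adjusted p = 0.0447 and 0.0449), with array weights (0.74, adjusted p = 0.00492) and after quantile normalization (adjusted p = 0.048). With the index the CD34- difference was -0.049 (adjusted p = 0.97), a change of sign, and the CD34+ difference 0.087 (adjusted p = 0.908). The CD34- call was also lost without CD70TG replicate 1 (adjusted p = 0.0909), CD70TG replicate 3 (adjusted p = 0.0541) or control replicate 3 (adjusted p = 0.0611). The partner chain Ifngr2 passed in neither fraction, and its 3 probes differed in sign in CD34- cells (0.27, -0.25 and -0.23).

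Ifnar1, a chain of the receptor for type I interferons, read 5.99, 5.99, 6.07 and 5.96 on the control CD34- arrays and 6.77, 6.02, 6.79 and 6.90 on the CD70TG CD34- arrays. It read 6.16, 5.99, 6.07 and 6.93 on the control CD34+ arrays and 6.78, 6.32, 6.95 and 7.05 on the CD70TG CD34+ arrays. No control CD34- array was above background, CD70TG replicate 2 lay among them, and only 7 of all 16 arrays were above background. The CD34- difference of 0.62 ± 0.20 (adjusted p = 0.026) therefore has a lower bound only, at least 0.21 on the log2-like scale. With the index it was -0.44 (adjusted p = 0.149), and it was lost without control replicate 1 or 4 or without CD70TG replicate 1, 3 or 4 (adjusted p of 0.0525 to 0.0799). In CD34+ cells, where control replicate 4 was the one control array above background, the difference was 0.49 (adjusted p = 0.0974), and -0.25 with the index (adjusted p = 0.316). It passed with array weights (0.57, adjusted p = 0.0121) and without CD70TG CD34+ replicate 2, CD70TG CD34- replicate 2 or control CD34+ replicate 4 (adjusted p = 0.034, 0.0442 and 0.00612). Without the last of these no control array was above background, so that its size would be a bound only. The other type I interferon chain, Ifnar2, differed by 0.14 (adjusted p = 0.489) and 0.22 (adjusted p = 0.315). Il10ra, the interleukin 10-specific chain, differed by 0.06 (adjusted p = 0.782) and 0.16 (adjusted p = 0.467) between genotypes, and by 0.02 (adjusted p = 0.98) and 0.13 (adjusted p = 0.789) with the index.

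Markers of myeloid cells also rose in CD70TG mice, where 16% of all features were called higher in CD34- and 7.59% in CD34+ cells. Of 13 monocyte and macrophage markers, 12 rose in CD34- and 5 in CD34+ cells of CD70TG mice, with mean levels of 7.47 to 7.56 on control and 8.61 to 8.81 on CD70TG CD34- arrays, and 7.09 to 7.16 and 7.33 to 7.58 on CD34+ arrays. Of 8 granule and myeloid progenitor markers, 7 rose in each fraction, with mean levels of 8.64 to 9.03 on control and 10.22 to 10.69 on CD70TG CD34- arrays, and 8.56 to 8.81 and 9.93 to 10.53 on CD34+ arrays. Among 10 markers of mast cells, basophils and eosinophils, 6 rose in CD34- cells, and 5 rose and 1 fell in CD34+ cells, with mean levels of 7.65 to 7.89 on control and 8.45 to 8.87 on CD70TG CD34- arrays, and 8.09 to 8.25 and 8.67 to 8.89 on CD34+ arrays. Of 11 neutrophil markers, Csf3r left out, 5 rose in CD34- and 3 in CD34+ cells. Between the fractions of CD70TG mice, 11 of 13 monocyte and macrophage markers were lower in CD34+ cells and 1 was higher. The 3 receptors did not differ there: Il10rb by 0.008 (adjusted p = 0.994), Ifngr1 by -0.046 (adjusted p = 0.966) and Ifnar1 by 0.15 (adjusted p = 0.803). The part of these markers in the receptor differences was not tested.

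**Figure D3:**
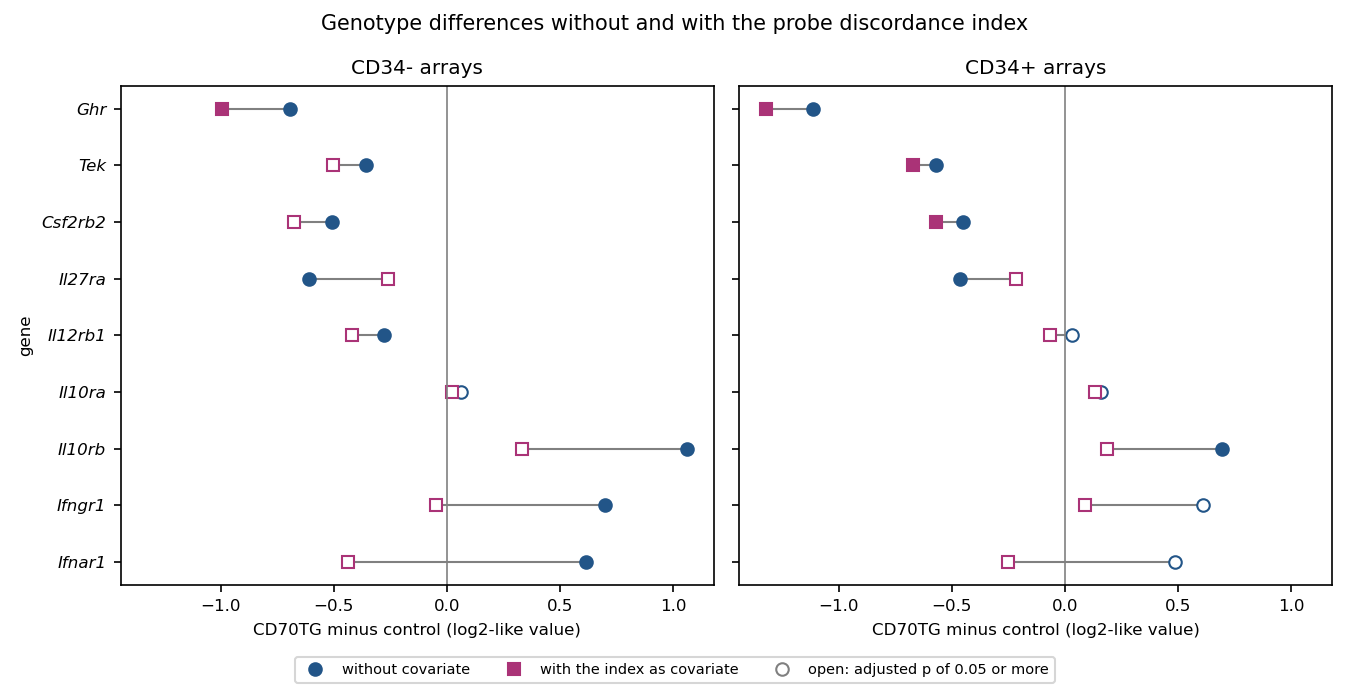
Genotype differences (x axis, CD70TG minus control, log2-like value) of the 9 called receptors (y axis) in CD34- arrays (left) and CD34+ arrays (right), without a covariate (circles) and with the probe discordance index (squares); filled symbols passed an adjusted p under 0.05. Ghr stays filled in both panels, Il10rb moves from 1.06 to 0.33 in CD34- cells, and Ifngr1 and Ifnar1 move to the other side of 0 there.

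No gamma common or related receptor passed between genotypes. Il7r, the interleukin 7 receptor alpha chain of lymphoid progenitors, whose protein was among the stained antigens, had the widest range of the tested receptors. Il7r read 9.89, 9.27, 9.86 and 9.52 on the control CD34- arrays and 9.21, 9.26, 9.27 and 8.82 on the CD70TG CD34- arrays. It read 8.80, 9.53, 9.29 and 7.94 on the control CD34+ arrays and 8.47, 8.77, 8.32 and 8.12 on the CD70TG CD34+ arrays. Control CD34+ replicate 4 was the lowest of all 16 arrays. The difference was -0.49 ± 0.25 (SE, adjusted p = 0.163) in CD34- and -0.47 ± 0.25 (adjusted p = 0.215) in CD34+ cells; without that array the values were -0.49 (adjusted p = 0.048) and -0.79 (adjusted p = 0.00698). With the index the sign was the opposite in both fractions, at 0.38 (adjusted p = 0.655) and 0.14 (adjusted p = 0.859). Of 6 tested B cell markers, 5 fell in CD34- and 3 in CD34+ cells, where 11.8% and 10.6% of all features were called lower. Their mean levels were 7.89 to 8.11 on control and 7.29 to 7.57 on CD70TG CD34- arrays, and 7.19 to 8.27 on control and 7.07 to 7.18 on CD70TG CD34+ arrays. Their part in the Il7r values was not tested. Il15ra, the interleukin 15 alpha chain, differed by -0.29 (adjusted p = 0.0594) and -0.30 (adjusted p = 0.063), close to the threshold. Both passed with array weights (adjusted p = 0.0276 and 0.0389), quantile normalization (adjusted p = 0.0151 and 0.0375) and the stricter filter (adjusted p = 0.0484 and 0.0497). The CD34- difference also passed when replicate 2 of the control CD34- arrays, replicate 1 of the CD70TG CD34- arrays or replicate 1 of the control CD34+ arrays was left out, and the CD34+ difference when either of the CD34- arrays was. With the index they were -0.53 (adjusted p = 0.0946) and -0.47 (adjusted p = 0.0481). The second Il15ra probe fell by 0.35 in CD34- cells (adjusted p = 0.00953). For Il21r, the interleukin 21 receptor, the differences were 0.02 (adjusted p = 0.891) and 0.06 (adjusted p = 0.663). Il17ra, the shared chain of the interleukin 17 receptors, differed by 0.31 (adjusted p = 0.137) and 0.19 (adjusted p = 0.418), and with the index by -0.22 (adjusted p = 0.666) and -0.18 (adjusted p = 0.629).

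**Figure D4:**
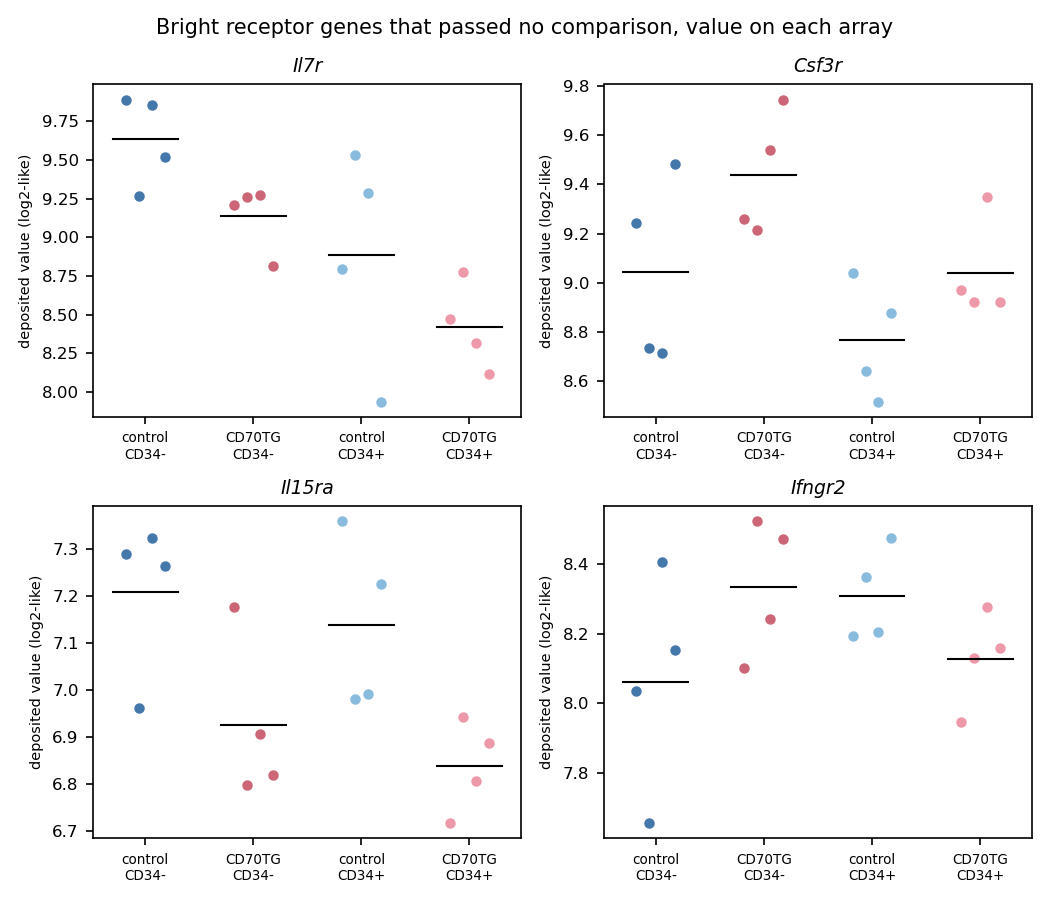
Deposited log2-like value (y axis, a separate range per panel) on each of the 4 arrays of each group (x axis) for Il7r, Csf3r, Il15ra and Ifngr2, which passed in no comparison. Points are arrays and lines are group means; control CD34+ replicate 4 of Il7r, at 7.94, lies below the other 3 control CD34+ arrays.

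Between fractions, 2 of 25 receptors changed in each genotype, and Il27ra was higher in CD34+ cells in both. In control mice 8.31% of all features were called (3.99% higher and 4.32% lower in CD34+ cells), and in CD70TG mice 5.99% (1.6% higher and 4.39% lower). Arrays of the fractions did not overlap for 4 receptors in each genotype, against 12.1% of all features in control and 12.2% in CD70TG mice. Il27ra was higher in CD34+ cells by 0.82 ± 0.12 (SE, adjusted p = 0.000162) in control and 0.97 ± 0.12 (adjusted p = 1.9e-05) in CD70TG mice, and with the index by 0.97 and 1.01. Both passed whichever array was left out. Its second probe was higher by 0.39 (adjusted p = 0.0842) and 0.66 (adjusted p = 0.0037). Tek was higher in CD34+ cells of control mice by 0.28, without overlap, and did not pass (adjusted p = 0.105). In CD70TG mice Tek differed by 0.07 (adjusted p = 0.839). Ghr was lower in CD34+ cells of CD70TG mice by 0.78 ± 0.13 (adjusted p = 0.00053); in control mice its difference of -0.36 did not pass (adjusted p = 0.0939) and with the index was -0.49 (adjusted p = 0.0391).

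Il10ra was the receptor lower in CD34+ than CD34- cells of control mice. It read 8.57, 8.35, 8.70 and 8.89 on the control CD34- arrays and 8.66, 8.48, 8.72 and 8.91 on the CD70TG CD34- arrays. It read 8.20, 8.27, 7.87 and 7.99 on the control CD34+ arrays and 8.28, 8.33, 8.43 and 7.93 on the CD70TG CD34+ arrays. In both genotypes every CD34+ array lay below every CD34- array. The difference was -0.55 ± 0.14 (SE, adjusted p = 0.0214) in control and -0.45 ± 0.14 (adjusted p = 0.0743) in CD70TG mice. The control call was lost without control CD34- replicate 4 (adjusted p = 0.0794), control CD34+ replicate 3 (adjusted p = 0.0666) or control CD34+ replicate 4 (adjusted p = 0.0608). Mature myeloid markers were also lower in CD34+ cells. Between the fractions of control mice, 6 of 13 monocyte and macrophage markers and 8 of 11 neutrophil markers were lower, and in CD70TG mice 11 (with 1 higher) and 9. The monocyte and macrophage mean was 7.47 to 7.56 on CD34- and 7.09 to 7.16 on CD34+ control arrays, and 8.61 to 8.81 and 7.33 to 7.58 on CD70TG arrays. The neutrophil mean was 9.66 to 10.20 on CD34- and 8.77 to 9.15 on CD34+ control arrays, and 9.95 to 10.76 and 9.15 to 9.67 on CD70TG arrays. Between genotypes in CD34- cells, 12 of the 13 monocyte and macrophage markers and 5 of the 11 neutrophil markers rose in CD70TG mice. Il10ra differed there by 0.06 (adjusted p = 0.782). The part of these markers in the Il10ra result was not tested. Il7r differed by -0.74 ± 0.25 (adjusted p = 0.0796) in control and -0.72 ± 0.25 (adjusted p = 0.125) in CD70TG mice; the control value passed without control CD34+ replicate 2 (-0.96, adjusted p = 0.0242), and the CD70TG value without control CD34+ replicate 4 (-0.72, adjusted p = 0.0189).

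**Figure D5:**
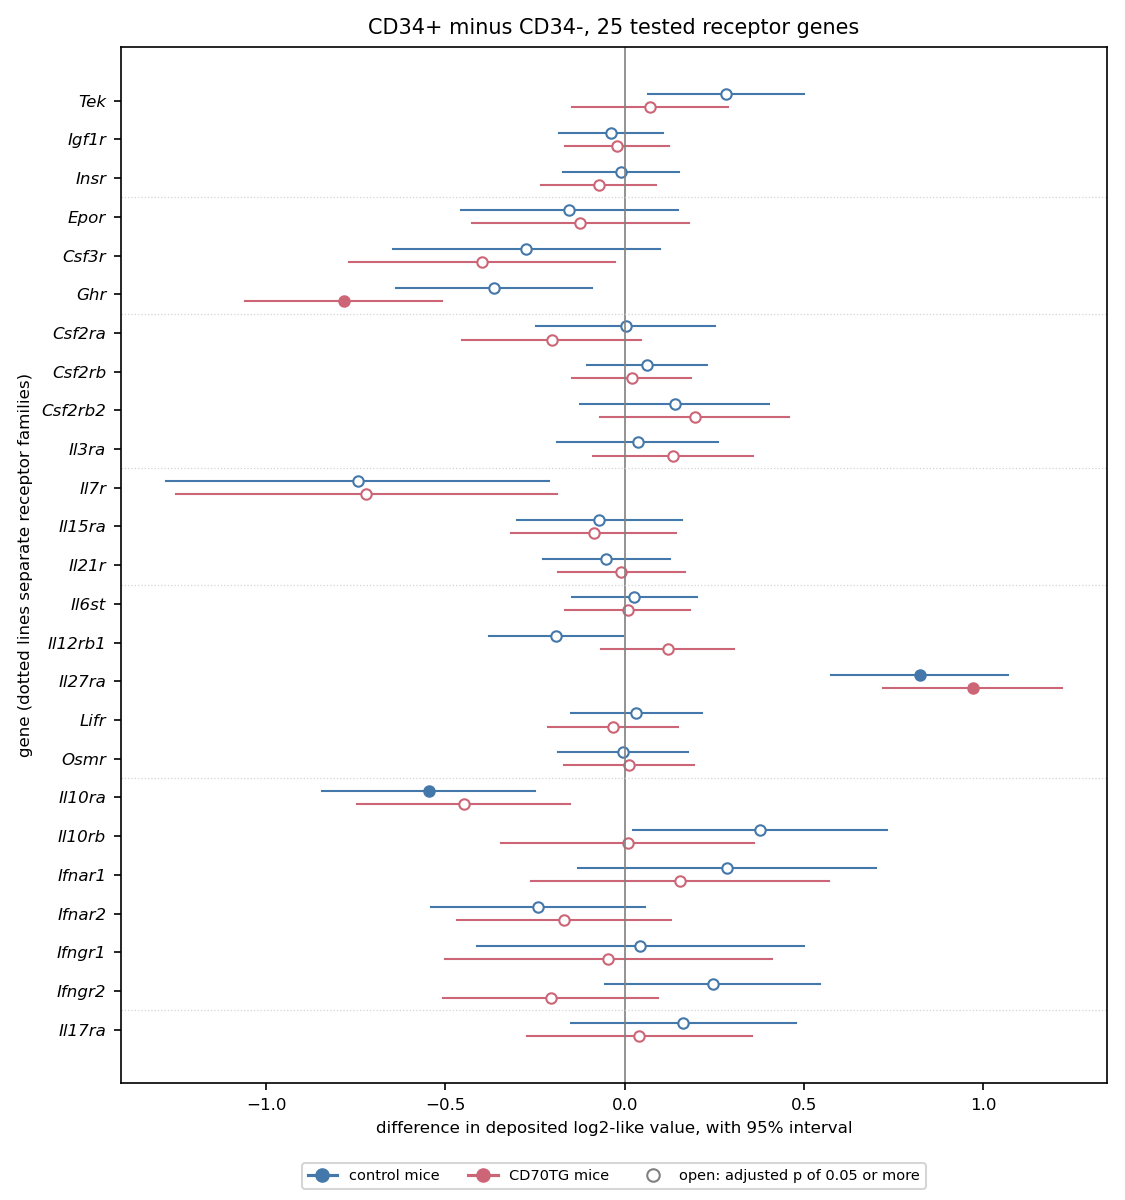
Difference between CD34+ and CD34- arrays (x axis, log2-like value, with its 95% interval) for each of the 25 tested receptors (y axis, ordered by family) in control and in CD70TG mice. Filled points passed an adjusted p under 0.05: Il27ra and Il10ra in control mice, Il27ra and Ghr in CD70TG mice.

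No receptor passed limma's interaction test for a genotype effect that differs between fractions: 0 of 25, where 0.355% of all features passed (0.0422% higher and 0.313% lower). Before adjustment, 3 receptors (Ghr, Ifngr2 and Il12rb1) had a p under 0.05, at ranks 680, 715 and 485 by p among 11839 features. The share of all features under that unadjusted threshold was not computed, so this count is not read as a result about the receptors. The test does not show that the effects were equal. The interaction was -0.45 ± 0.20 (SE) for Ifngr2 and 0.31 ± 0.13 (adjusted p = 0.566) for Il12rb1.

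Genes of the pathway around these receptors changed in both directions. The counts for these lists stand beside 27.8% of all features called in CD34- cells (16% higher and 11.8% lower). In CD34+ cells the share was 18.2% (7.59% higher and 10.6% lower). Of 17 feedback inhibitors, 2 rose and 5 fell in CD34- cells, and 0 rose and 5 fell in CD34+ cells. Cish and Socs2, inhibitors induced by STAT5 that act on the growth hormone receptor, fell beside Ghr: Cish differed by -1.54 in CD34- and -1.46 in CD34+ cells (adjusted p of 3.0e-06 and 7.1e-06), and Socs2 by -1.28 and -0.99 (adjusted p of 2.5e-05 and 0.000443). With the index, Cish differed by -0.79 (adjusted p = 0.0229) and -0.93 (adjusted p = 8.0e-04), and Socs2 by -1.76 and -1.32 (adjusted p of 0.000193 and 0.000275). Grb10, an adaptor that inhibits insulin and insulin-like growth factor receptors, had the smallest p of the list in both fractions (-1.18 and -1.83, adjusted p of 1.7e-06 and 2.1e-08), and passed with the index (-1.15 and -1.81). Of 24 ligands, 2 rose and 5 fell in CD34- cells and 0 rose and 5 fell in CD34+ cells. Il7, the ligand of Il7r, fell in both (-0.53, adjusted p = 0.000548, and -0.49, adjusted p = 0.00169). Igf2, a ligand of Igf1r, fell in both as well (-1.38, adjusted p = 4.1e-08, and -0.75, adjusted p = 5.1e-05), as did Il4, the interleukin 4 gene (-1.37 and -1.34, adjusted p of 1.1e-07 and 2.0e-07). Ebi3, the subunit of interleukin 27, fell beside Il27ra (-0.98, adjusted p = 0.000268, and -0.95, adjusted p = 0.00052). With the index the Ebi3 differences were -0.37 (adjusted p = 0.423) and -0.52 (adjusted p = 0.0955), and neither passed. Like Il27ra, Ebi3 was higher in CD34+ than CD34- cells of control (0.60, adjusted p = 0.0307) and CD70TG mice (0.64, adjusted p = 0.024). Unlike those of Il27ra, these Ebi3 calls were lost without any 1 of 5 arrays in control mice (control CD34- replicates 2 and 4 and control CD34+ replicates 1 to 3, adjusted p of 0.0551 to 0.0917) and any 1 of 6 in CD70TG mice (CD34- replicates 1, 3 and 4 and CD34+ replicates 2 to 4, adjusted p of 0.0524 to 0.0954).

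Of 10 JAK and STAT genes, 2 rose and 2 fell in CD34- cells, and 0 rose and 3 fell in CD34+ cells. Jak2, the kinase of Ghr, Epor and the beta common chain, fell in both (-0.52, adjusted p = 0.00423, and -0.59, adjusted p = 0.00245), and with the index differed by -0.49 (adjusted p = 0.222) and -0.57 (adjusted p = 0.0474). Jak1, used by the gp130 and interferon receptors, rose by 0.99 in CD34- cells (adjusted p = 0.0129) and had the opposite sign with the index (-0.38, adjusted p = 0.558). The same held for Stat5b, a STAT of many of these receptors, at 1.02 (adjusted p = 0.0364) without and -0.89 (adjusted p = 0.0573) with the index; the Stat5b call was also lost without any 1 of the CD34- arrays but CD70TG replicate 2 (adjusted p of 0.0546 to 0.127). Of 17 adaptors and kinases, 1 rose and 2 fell in CD34- cells, and 1 rose and 3 fell in CD34+ cells. Of 27 other receptors of the same families, 8 rose and 2 fell in CD34- cells, and 3 rose and 3 fell in CD34+ cells. Flt3, a receptor of early progenitors that was a sort marker, rose in CD34- cells (1.94, adjusted p = 0.00164) and had the opposite sign with the index (-0.25, adjusted p = 0.77). Axl and Mertk, receptor tyrosine kinases for the uptake of dying cells, were the 2 of these that passed the interaction (-2.07, adjusted p = 0.000268, and -0.88, adjusted p = 0.000447). Axl rose by 1.24 in CD34- cells and fell by 0.83 in CD34+ cells (adjusted p = 5.3e-05 and 0.00276). With the index the Axl rise was 1.35 (adjusted p = 0.00799), and the CD34+ difference of -0.76 did not pass (adjusted p = 0.0607).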

How the data were processed

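Sorted cells' RNA was amplified in successive rounds, biotin-labelled and read on Illumina bead arrays for mouse, per the labels' protocols. The deposited table holds log2-like values of 25697 probes on 16 arrays, as the authors processed them. Its log base, background correction and normalization are not stated in the sources used here. A table of 32 further columns was not used, because its names match no label.

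Probes were kept if above the array mode by 1.64 SD of background (density bandwidth 0.1) on at least 4 of 16 arrays (15538 probes), and the brightest kept probe stood for a gene, giving 11839 features. Probes were named by the platform annotation and symbols brought up to date by gene number. Groups were compared with limma 3.58.1 in R 4.3.3 (lmFit on 4 group means over all arrays, 12 residual degrees of freedom, eBayes with trend, Benjamini-Hochberg adjustment within each comparison, threshold 0.05). The 5 comparisons share arrays: both genotype and both fraction comparisons use the same 4 groups. The receptors, pathway lists and marker lists were chosen with earlier results of these data known. Receptors called in any comparison are described in full. Of other genes, up to 4 called members of each pathway list with the smallest p in each genotype comparison could be named, with Cd27, Cd70, Cd34, Flt3 and Ifng. Not all genes that this rule allows are described, and 1 of them is not reported here. On simulated arrays for the CD34- genotype comparison with 11839 features, 63% of 100 genes changed by 0.5 and 94% of 100 changed by 1 were recovered, with 3.68% false among those called. The simulated spread was independent between genes and few genes changed. In the real comparison 27.8% of features were called and 1 array of the CD70TG CD34- group stood apart, so these rates need not hold for these data. Replicates are independent pools of 2 mice, and their number limits precision: the median SE of a group difference was 0.115. Alternatives were other dim-probe filters, every probe tested by itself, fits to only the arrays compared, replicate blocks, array weights, 2 other scalings, the probe discordance index, a minimum fold of 1.2, no trend, and leaving out arrays.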

Additional observations from a re-analysis of the deposited data

Results flagged for a closer look

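Of 100 groups of 4 arrays (25 receptors in 4 groups), 7 held an array far from the other 3, and chance flags about 1 in 20 groups. Control CD34- replicate 2 was one of these for 3 receptors: Csf2rb2 at 6.922 (the others 7.4 to 7.437), Il6st at 7.217 (6.873 to 6.931) and Il15ra at 6.962 (7.265 to 7.323). Control CD34- replicate 1 was low for Il17ra at 7.3 (7.44 to 7.452). CD70TG CD34- replicate 4 was low for Il7r at 8.817 (9.208 to 9.273). CD70TG CD34- replicate 2, which also stood apart on the first principal component, was low for Ifnar1 at 6.024 (6.77 to 6.904). CD70TG CD34+ replicate 3 was high for Csf3r at 9.349 (8.923 to 8.97).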

How the results depend on the processing

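The number of called receptors moved by over 1.5 times in few settings. In CD34- cells the 8 called between genotypes became 1 with the probe discordance index (5.63% of all features called). They became 3 with a minimum fold of 1.2 (Ghr, Il27ra and Il10rb, where 9.13% of all features were called). In CD34+ cells the 5 became 10 with array weights (28% of all features called) and 1, Ghr, with the minimum fold (4.6%). They became 8 without control CD34+ replicate 4 (23.1%). The number was also 8 without both arrays that stood apart (25.6%), a choice made after seeing the data. With the index 4 receptors were called in CD34+ cells (8% of all features called), 3 of them among the 5. Between fractions the 2 of control mice became 1 with only the arrays compared (4.07% of all features called) or with the minimum fold (1.78%). The 2 of CD70TG mice became 5 with array weights (12%). Leaving out each array gave 6 to 9, 4 to 8, 1 to 3, 2 to 3 and 0 to 0 called receptors in the 5 comparisons. With the index, called values changed sign in CD34- cells for Ifnar1 (-0.44), Ifngr1 (-0.049), Flt3 (-0.25), Jak1 (-0.38) and Stat5b (-0.89); the cause was not tested. Replicate numbers were not used as pairs in the main fit. Of 16 same-number correlations of deviations, 9 exceeded 0.1, over a range of -0.307 to 0.653. Whether same-number arrays share mice or a batch was not tested. With a fixed replicate block 8, 7, 3, 2 and 0 receptors were called, Ifngr1 (adjusted p = 0.0421) and Ifnar1 (adjusted p = 0.0226) passing in CD34+ cells and Il7r (adjusted p = 0.0345) between control fractions, and with a random block 8, 5, 2, 2 and 0. Values near background, such as those of Ifnar1 and the CD70TG CD34+ arrays of Ghr, limit what these arrays can show.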
